A study of Mus musculus with 12 samples.

Results

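The Zfp genes are the mouse genes whose symbol is Zfp followed by a number, and most of them encode zinc finger proteins that bind DNA or RNA. They were chosen for their signal in resting wild-type B cells. A noncontrol probe whose RefSeq accession maps to such a symbol was kept if the scanner flagged it as well above background on all 3 arrays of unstimulated wild-type cells, and the probe with the highest mean over the 12 arrays stood for its gene. This gave 283 genes of the 330 Zfp symbols on the array, among 22753 genes tested. Of the other Zfp genes, 6 were flagged on 2 of the 3 arrays, 15 on 1 and 26 on none. The dimmest members just inside the rule had 1 low array of unstimulated wild-type cells: Zfp872 read -5.14, -2.01 and -2.55, Zfp941 -5.00, -0.32 and -0.33 and Zfp345 -4.69, -0.41 and -0.24. Just outside it, with 2 flags of 3, Zfp940 read -3.09, -3.80 and -3.09, Zfp623 -3.69, -4.11 and -3.05, and Zfp786 -3.62, -4.30 and -3.83. All levels are log2 of the processed signal over the 75th percentile of the same array, so 0 is the level of a probe brighter than 75% of probes. A level belongs to its probe and is not set against that of another probe.

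The arrays measured total RNA of splenic follicular zone B cells from male C57BL/6J mice, labelled with Cy3 and hybridised to Agilent 1-colour arrays, 1 sample per array. There are 4 groups of 3 arrays: WT cells at 0 h, WT cells after 24 h in culture with 10 µg/mL anti-mouse IgM Fab', and the same 2 times for Bach2-/- cells. Anti-IgM crosslinks the B cell receptor, and the cells at 0 h had no such stimulation. Every group carries its genotype as the only named allele, and the labels give no age and do not say how the Bach2 allele was made or whether arrays of a group come from separate mice, so a p-value here covers the spread among these arrays alone, which may be technical. The study set out to compare the 2 genotypes before and after stimulation, because Bach2-/- follicular B cells proliferate less after it.

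Most Zfp proteins carry repeats of the zinc finger fold that hold a zinc ion with cysteines and histidines, and an array of such fingers reads a stretch of DNA. Many of them also carry a KRAB domain, which recruits Trim28 and, through it, the histone methyltransferase Setdb1 and HP1 proteins, and so silences transposable elements and some genes in heterochromatin. Others act on RNA, on ribosomes or as promoter-binding activators. BACH2 is a transcriptional repressor of B cells that pairs with small MAF proteins on sites whose core is a form of TGANTCA. It holds back the plasma cell program.

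The upstream sequences below are those of members that differed between the genotypes at 24 h and have a window. That of Zfp652, which fell in stimulated cells of both genotypes, is added and holds the motif TGANTCA. These promoters are unlike each other. Each is the 250 bases before the RefSeq start on build GRCm38.p6, 5′ to 3′ on the gene's strand, which is the plus strand in all 4, and capitals mark TGANTCA, a motif that reads as itself on the other strand.
Zfp105: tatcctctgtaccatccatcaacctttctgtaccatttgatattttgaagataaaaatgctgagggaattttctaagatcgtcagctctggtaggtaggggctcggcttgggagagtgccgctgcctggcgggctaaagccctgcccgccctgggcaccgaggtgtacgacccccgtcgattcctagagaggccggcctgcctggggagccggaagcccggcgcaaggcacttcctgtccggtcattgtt
Zfp273: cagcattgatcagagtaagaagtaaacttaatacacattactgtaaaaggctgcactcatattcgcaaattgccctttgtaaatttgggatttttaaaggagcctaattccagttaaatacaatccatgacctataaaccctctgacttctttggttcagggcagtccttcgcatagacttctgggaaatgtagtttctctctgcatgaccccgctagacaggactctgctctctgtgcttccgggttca
Zfp318: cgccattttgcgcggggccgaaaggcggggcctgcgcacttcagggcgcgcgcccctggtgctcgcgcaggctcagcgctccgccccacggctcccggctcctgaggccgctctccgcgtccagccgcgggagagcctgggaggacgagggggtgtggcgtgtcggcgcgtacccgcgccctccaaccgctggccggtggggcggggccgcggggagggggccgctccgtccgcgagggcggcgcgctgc
Zfp652: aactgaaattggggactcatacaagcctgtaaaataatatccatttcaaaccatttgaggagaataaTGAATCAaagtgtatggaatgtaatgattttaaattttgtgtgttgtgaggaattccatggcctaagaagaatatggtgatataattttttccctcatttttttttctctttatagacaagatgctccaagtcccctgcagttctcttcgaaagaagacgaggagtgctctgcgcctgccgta
These windows are chr9:122922828-122923077, chr13:67813566-67813815, chr17:46383516-46383765 and chr11:95748817-95749066. The Zfp318 window has 79.6% G and C and a CpG observed over expected ratio of 0.989, against 57.2% and 0.685 for Zfp105, 42.0% and 0.367 for Zfp273, and 36.8% G and C for Zfp652. The letters TGANTCA, with any base taken at N, were in the window of Zfp652, as TGAATCA, and in none of the other 3. Zfp831, the member with the largest fall, is named without a window. Over the 240 members with a RefSeq window, 10 (4.17%) held the motif in at least 1 window, against 7.82% of the 27025 genes of the table and 5.66% of the 10397 protein-coding genes tested. The 10 were Zfp57, Zfp239, Zfp329, Zfp511, Zfp652, Zfp661, Zfp672, Zfp790, Zfp869 and Zfp871. Of the 12 members that fell in both genotypes, only Zfp652 is among these 10, so its window does not stand for the others. Member windows had a median of 54.0% G and C and a median CpG ratio of 0.625, against 52.4% and 0.373 over the whole table and 58.8% and 0.684 over the protein-coding genes tested. A match of letters is a description of the sequence and not a binding site.

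The labels and the arrays' quality were checked before any comparison. Bach2 itself read 3.99, 3.40 and 3.69 in WT cells at 0 h, 3.71, 3.22 and 3.68 at 24 h, 1.33, 0.96 and 1.10 in Bach2-/- cells at 0 h and 0.15, -0.85 and 0.064 at 24 h, so the genotypes did not overlap. All 8 B cell markers tested were above background on all 12 arrays. Their summed signal, in units of the array's 75th percentile, was 1133 to 1535 in WT cells at 0 h and 1209 to 1917 in Bach2-/- cells at 0 h, and 450 to 848 and 235 to 401 at 24 h. T cell markers summed to 12.9 to 39.7 over all arrays, plasma cell markers to 59.8 to 238, macrophage and monocyte markers to 3.85 to 17.9 and neutrophil markers to 77.6 to 329, with Mpo below background on all WT arrays. Erythroid markers, of which 3 of 6 were tested, were higher in Bach2-/- cells: 19.7 to 60.1 against 2.05 to 8.24 at 0 h, and 4.33 to 19.7 against 0.528 to 1.72 at 24 h. Array 1 of the Bach2-/- cells at 0 h had none of 4 Y-linked genes above background although it is labelled male, and array 2 of the Bach2-/- cells at 24 h was the dimmest, with a 75th percentile of 87.4 against 155 to 307 on the others. Array 1 of every group was on 1 slide and arrays 2 and 3 on another, scanned on another day. In 7 of the 283 members the array on the first slide was over 4-fold lower than those on the second in all 4 groups (2.47%, against 2.18% of all genes tested and 0.92% of the genes chosen by the same flags as the members), and no member was over 4-fold higher.

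**Figure D1:**
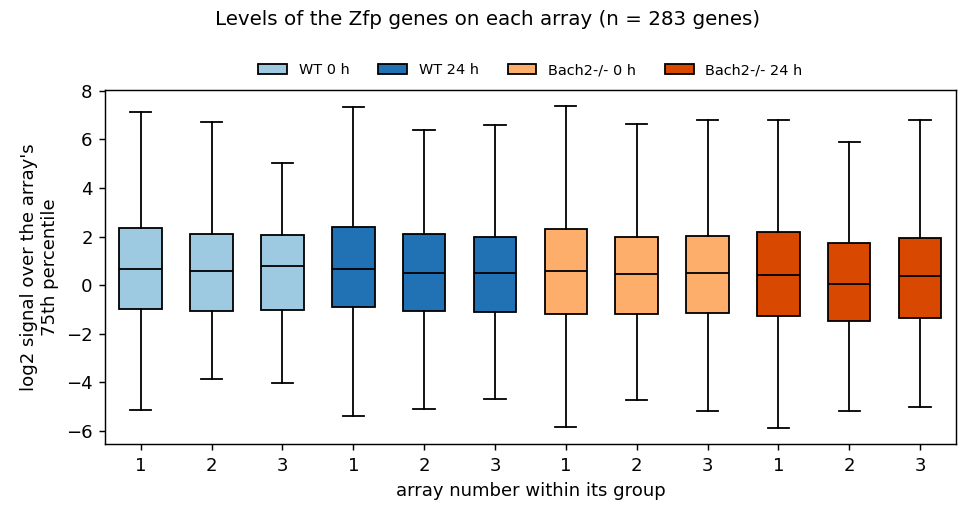
Levels of the 283 Zfp genes on each of the 12 arrays, as log2 of signal over the array's 75th percentile (y axis), by array number within its group (x axis). Boxes span the quartiles with the median as a line, and whiskers reach at most 1.5 times the box height. The median is lowest, at 0.045, on array 2 of the Bach2-/- cells at 24 h.

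As a group, the Zfp genes read lowest in the stimulated Bach2-/- cells. The median over the 283 members was 0.66, 0.59 and 0.78 on the 3 arrays of unstimulated WT cells, and 0.65, 0.49 and 0.48 once these were stimulated. The Bach2-/- arrays had medians of 0.57, 0.44 and 0.52 before stimulation, then 0.42, 0.045 and 0.38. The 3 arrays of stimulated Bach2-/- cells had the lowest medians of the 12, and the lowest was the dimmest array. Detection was also lowest there: 262 members were above background on all 3 arrays of this group, against 278 in WT cells at 24 h and 278 in Bach2-/- cells at 0 h. Its dimmest array, array 2, had 50.9% of all noncontrol spots above background, against 53.1% to 66.7% on the others. The median of the genes chosen by the same flags was also lowest on array 2, at 1.01, with 1.60 and 1.32 on arrays 1 and 3 of the group. No member was below background on all 3 arrays of a group, and 260 were above it on all 12. The median SD between the arrays of a group was 0.32 in WT cells at 0 h, 0.37 in WT cells at 24 h, 0.34 in Bach2-/- cells at 0 h and 0.44 in Bach2-/- cells at 24 h.

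The first comparison without the arrays whose flags chose the members is the change of Bach2-/- cells over 24 h with anti-IgM. Where a member had several probes, the probe used had the highest mean over all 12 arrays, these included. Of the 283 Zfp genes, 20 fell and 7 rose at a Benjamini-Hochberg adjusted p under 0.05 (limma, 2-sided, over all genes tested). That is 7.07% lower and 2.47% higher, where 7.74% of all genes tested fell and 5.51% rose, and where 9.21% and 5.35% of the 12288 RefSeq-named genes chosen by the same flags did. The share that fell was thus near the background and the share that rose was below it, and no test of either difference was made. The median difference of the members was -0.17, against 0.07 over all genes and 0.034 over the genes of the same flags. With the replicate number as a block, 72 members (25.4%) fell and 34 (12%) rose, where 16.8% and 16.7% of all genes and 20.4% and 18.3% of the genes of the same flags did. All 27 calls of the fit without the block were also called with it. Without the 2 arrays that stand apart, 11 members fell and 9 rose, with a median of -0.02. Counts of falls also dropped to 11, 13 and 12 without Bach2-/- array 1, 2 or 3 at 0 h and to 11 without array 3 at 24 h. Rises dropped to 3 without array 2 or 3 at 0 h and to 4 without array 3 at 24 h. Shares over all genes are not given for these reduced fits, so their counts describe the members alone.

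**Figure D2:**
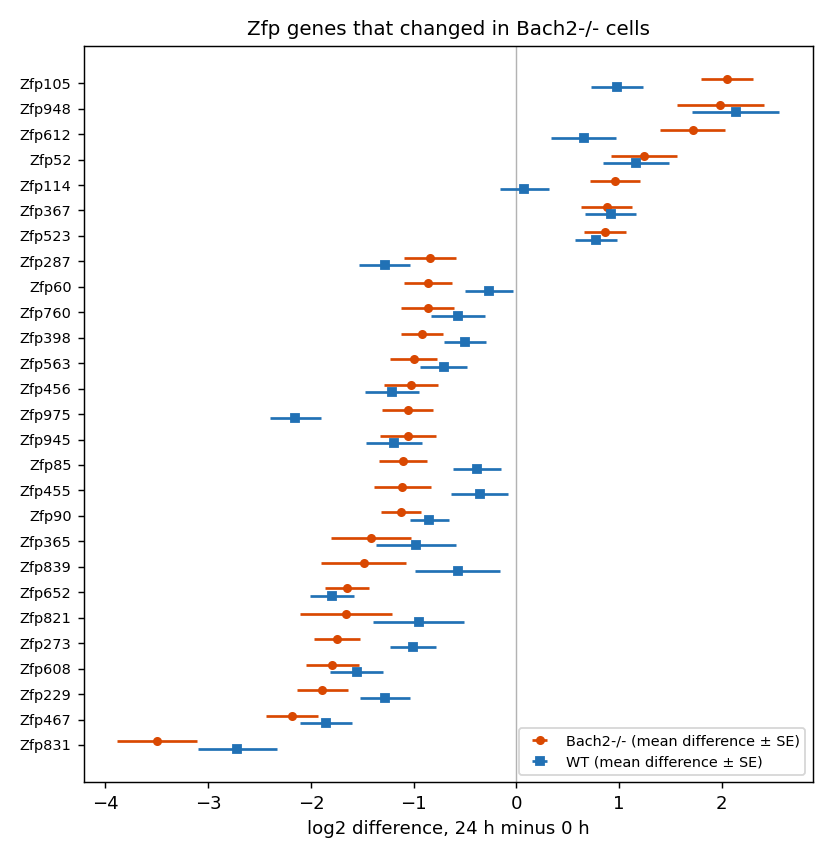
The 27 Zfp genes that passed the test in Bach2-/- cells, with the log2 difference of 24 h minus 0 h (x axis) in Bach2-/- cells (circles) and WT cells (squares), each the difference of 2 means of 3 arrays ± SE of the limma fit. The Bach2-/- values run from -3.50 for Zfp831 to 2.05 for Zfp105.

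The largest fall was that of Zfp831. It read 1.25, 0.65 and 0.65 on the arrays of Bach2-/- cells at 0 h and -1.99, -3.38 and -2.58 at 24 h, where 2 of 3 arrays were above background. The groups were far apart, a difference of -3.50 ± 0.39 (SE), or 11.3-fold lower, with an adjusted p of 9.59e-05. The other probe of the gene differed by -2.22.

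Zfp467, which is known for steering precursor cells between the bone and fat lineages, read 1.09, 0.46 and 0.78 at 0 h and -1.55, -1.28 and -1.39 at 24 h. It was 4.55-fold lower, a difference of -2.19 ± 0.25 (SE, adjusted p 0.000138). The differences of its 4 probes ran from -2.38 to -0.43. Zfp229 went from -2.43, -2.43 and -2.5 to -4.21, -4.77 and -4.03, 3.71-fold lower, but only 1 of its 3 arrays was above background at 24 h, so the fold rests on signal near the limit.

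Zfp608, a protein known from thymocytes, where it represses the Rag genes, read 3.09, 2.64 and 2.64 at 0 h and 1.39, 0.74 and 0.86 at 24 h. It was 3.46-fold lower at 24 h (-1.79 ± 0.26, adjusted p 0.000625). Zfp273 read 0.46, 0.22 and 0.31 and then -1.34, -1.30 and -1.60, 3.35-fold lower (-1.74 ± 0.23, adjusted p 0.000289). These 2 genes moved by much more than the spread among their arrays.

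Zfp652 read 0.78, 0.85 and 0.78 at 0 h and -0.96, -0.80 and -0.78 at 24 h. Arrays of 1 time lay close together, and the gene was 3.14-fold lower (-1.65 ± 0.22, adjusted p 0.000322). Zfp821 went from 1.75, 0.89 and 0.92 to 0.37, -1.14 and -0.65 (-1.66 ± 0.44, adjusted p 0.0286). Its lowest value is on the dimmest array, and without both arrays that stand apart its adjusted p was 0.188. Zfp839 went from -1.49, -1.70 and -2.08 to -2.34, -3.89 and -3.49 (-1.48 ± 0.41, adjusted p 0.0349, and 0.191 without those arrays), with 2 of 3 arrays above background at 24 h.

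The other 12 that fell were Zfp365, Zfp90, Zfp455, Zfp85, Zfp945, Zfp975, Zfp456, Zfp563, Zfp398, Zfp760, Zfp60 and Zfp287, with differences from -1.41 to -0.84. Zfp975 has 5 tested probes and only the brightest fell clearly: the others differed by -0.15 to 0.15, and the mean of all its probes did not pass (adjusted p 0.679). Of the 7 called members with several tested probes it was the only one whose probes disagreed in sign. The call of Zfp90 held under every alternative run, from 1.04, 0.85 and 1.11 at 0 h to -0.13, -0.12 and -0.12 at 24 h (-1.12 ± 0.19, adjusted p 0.00208).

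Rises were fewer. Zfp105 had the largest, from -3.71, -3.23 and -3.34 at 0 h to -1.04, -1.59 and -1.5 at 24 h in Bach2-/- cells. It was 4.14-fold higher (2.05 ± 0.25, adjusted p 0.000207), with no overlap between the times. Zfp948 read -2.13, -2.33 and -2.60 and then -0.058, -0.86 and -0.18, 3.96-fold higher (1.99 ± 0.42, adjusted p 0.0081).

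Zfp612 read -3.87, -4.72 and -3.9 at 0 h, where 2 of 3 arrays were above background, and -2.36, -2.60 and -2.38 at 24 h. It was 3.28-fold higher (1.72 ± 0.31, adjusted p 0.00314). Its neighbours in this order are Zfp52, which is 2.36-fold higher (1.24 ± 0.32), Zfp114 (0.96 ± 0.24), Zfp367 (0.88 ± 0.25) and Zfp523 (0.87 ± 0.21), with adjusted p of 0.0233, 0.0211, 0.0375 and 0.015. Of the 27 calls, those of Zfp90, Zfp105, Zfp273, Zfp467, Zfp608, Zfp652, Zfp831 and Zfp948 held under every alternative run, and each of the other 19 was lost under at least 1.

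The second such comparison sets Bach2-/- against WT cells at 24 h, and the Zfp genes as a group lay lower in Bach2-/- cells. Of the 283 members, 228 (80.6%) had a negative difference and the median was -0.32. Over all genes tested 54.1% were negative with a median of -0.05, and over the genes of the same flags 63.1% with a median of -0.17. The shift was not particular to the members. Of 37 BTB and 17 SCAN zinc finger genes 78.4% and 76.5% were negative, with medians of -0.31 and -0.25. Of 28 co-repressor and heterochromatin genes 89.3% were negative, with a median of -0.35. Few single members passed the test: Zfp831, Zfp318 and Zfp273 were lower and Zfp105 was higher. These are 1.06% and 0.353% of the members, beside 0.835% and 2.16% of all genes tested and 1.18% and 2.13% of the genes of the same flags. With the replicate block 65 members (23.0%) were lower, with log2 differences of -1.77 to -0.44, and 5 (1.77%) higher, with 0.75 to 1.15, where 10.7% and 7.98% of all genes and 14.9% and 7.53% of the genes of the same flags were. The median of the members was -0.30 on the first slide and -0.31 on the second. It was -0.20 without both arrays that stand apart, when 1 member was higher and none lower. Values over all genes are not given for that fit, so its result describes the members alone. Because these are bulk samples, fewer cells of a type and less RNA per cell cannot be told apart. In the same Bach2-/- arrays erythroid markers were higher and B cell markers lower, as given above, and the 8 T cell markers summed to 24.4 to 39.7 against 15.5 to 22 in WT cells at 24 h, without overlap. The part of these markers in the result was not tested.

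**Figure D3:**
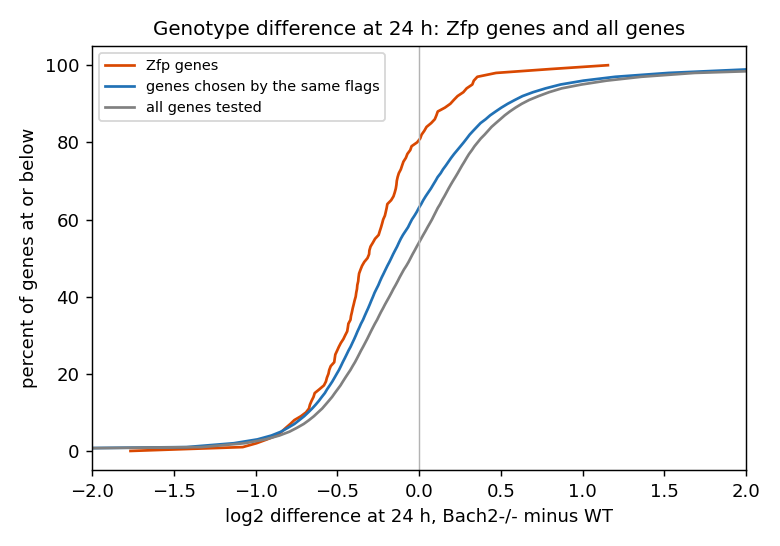
Cumulative distribution of the log2 difference at 24 h, Bach2-/- minus WT (x axis), as the percent of genes at or below each value (y axis), for the 283 Zfp genes, the 12288 genes chosen by the same flags and the 22753 genes tested. The curve of the Zfp genes lies left of the others over most of its range, with 80.6% of the genes below 0.

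At 24 h Zfp831 read -0.42, -1.12 and -1.11 in WT cells and -1.99, -3.38 and -2.58 in Bach2-/- cells. It was 3.4-fold lower in Bach2-/- cells (-1.77 ± 0.39, adjusted p 0.0316), by -1.57 on the first slide and -1.86 on the second. The other probe of the gene differed by less, -0.81. In the limma fit with normexp background correction the call was lost (adjusted p 0.336). At 0 h the probe used for Zfp831 read 2.36, 1.5 and 1.64 in WT and 1.25, 0.65 and 0.65 in Bach2-/- cells, so that on each slide the Bach2-/- arrays lay lower before stimulation as well. No 2 of the 4 groups overlapped.

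Zfp318, which mature B cells need to process the long Ighm and Ighd transcript into IgD mRNA, read 3.91, 3.13 and 3.09 in WT cells and 2.54, 1.25 and 1.48 in Bach2-/- cells at 24 h. It was 3.08-fold lower in Bach2-/- cells (-1.62 ± 0.38, adjusted p 0.0452), by -1.38 on the first slide and -1.75 on the second. The differences of its 4 probes ran from -3.40 to -1.62. At 0 h it read 4.44, 3.77 and 4.06 in WT and 3.48, 2.76 and 2.78 in Bach2-/- cells, and the Bach2-/- arrays were again the lower ones. Over 24 h in Bach2-/- cells its difference was -1.25 ± 0.38, with an adjusted p of 0.0531 and, with the replicate block, 0.000223.

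Zfp273 read -0.14, -0.68 and -0.47 in WT and -1.34, -1.30 and -1.60 in Bach2-/- cells at 24 h, 1.97-fold lower (-0.98 ± 0.23, adjusted p 0.0407). The slides gave -1.20 and -0.87. Zfp105 read -2.33, -2.35 and -2.86 and -1.04, -1.59 and -1.5, 2.2-fold higher in Bach2-/- cells (1.14 ± 0.25, adjusted p 0.0338), and the slides gave 1.29 and 1.06. In these 4 genes the genotypes did not overlap at 24 h. The adjusted p of each lies close to the threshold: without 1 of the WT or Bach2-/- arrays at 24 h the count of lower members ranged from 0 to 3 and that of higher members from 0 to 1. It was 0 lower without any single WT array or without Bach2-/- array 2 or 3, and 0 higher without any single WT array or without Bach2-/- array 1 or 3. With the replicate block the adjusted p was 0.000249 for Zfp831, 0.000206 for Zfp318, 0.00278 for Zfp273 and 0.00587 for Zfp105.

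**Figure D4:**
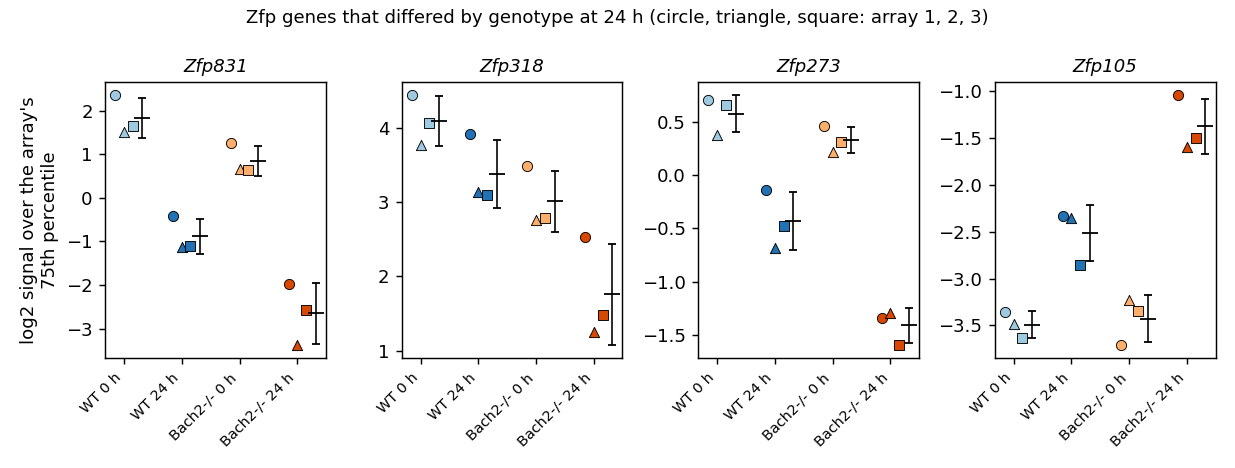
Levels of Zfp831, Zfp318, Zfp273 and Zfp105 on each array, as log2 of signal over the array's 75th percentile (y axis, its range set per gene), in the 4 groups (x axis). Points are arrays, and the bar beside them is the group mean ± SD of 3 arrays. At 24 h the Bach2-/- arrays of Zfp831 read from -3.38 to -1.99, all below the WT arrays.

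The remaining 3 contrasts contain the arrays that chose the members, so their values are a description without a test, and nothing is read from the counts. In WT cells 20 members passed the same threshold upward and 15 downward over 24 h, where 11.5% and 9.06% of all genes did. With the replicate block these were 48 and 61, where 27.6% and 19.3% of all genes did. The median of the members was -0.07, against 0.04 over all genes and 0.13 over the genes of the same flags. Higher counts dropped to 10 and 6 without WT array 2 or 3 at 0 h, and to 8 and 12 without array 1 or 2 at 24 h.

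Among the falls of WT cells Zfp831 was again the largest, from 2.36, 1.5 and 1.64 to -0.42, -1.12 and -1.11 (-2.72 ± 0.39). Zfp975 followed with -2.15 ± 0.25, a value of its brightest probe alone, then Zfp467 (-1.85 ± 0.25), Zfp652 (-1.80 ± 0.22), Zfp608 (-1.56 ± 0.26), Zfp287 (-1.28 ± 0.25), Zfp229 (-1.28 ± 0.25) and Zfp456 (-1.21 ± 0.26). The largest rises of WT cells were those of Zfp948 (2.14 ± 0.42), Zfp783 (2.09 ± 0.32), Zfp219 (1.95 ± 0.40) and Zfp672 (1.85 ± 0.46). Zfp362, Zfp982, Zfp768 and Zfp791 followed, from 1.5 down to 1.34.

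Several of these genes had a smaller difference in Bach2-/- cells. They were named for their large WT change, so the smaller one is no measure of the genotype and nothing is read from it. Zfp672 read 1.94, 1.18 and 0.88 in WT cells at 0 h and 4.17, 2.67 and 2.69 at 24 h, against 2.46, 1.31 and 1.39 and 2.71, 2.11 and 2.31 in Bach2-/- cells. Zfp783 read -0.53, -1.45 and -1.20 and 1.36, 0.88 and 0.87 in WT cells, against -0.52, -1.0 and -0.63 and 0.68, -0.21 and 0.56. Zfp982 read -2.49, -2.11 and -2.28 and -0.85, -0.76 and -0.91 in WT cells, against -1.97, -2.20 and -2.16 and -1.54, -1.72 and -1.72. The response difference, Bach2-/- change minus WT change, was -1.19 ± 0.65 for Zfp672, -1.04 ± 0.46 for Zfp783 and -1.01 ± 0.29 for Zfp982. Zfp975 had the opposite sign, 1.10 ± 0.35, again by its brightest probe.

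No member passed the threshold for the response difference, where 0.264% of all genes were higher and 0.0659% lower. At an unadjusted p under 0.05, 5 of the 283 members were higher and 6 lower, where 833 and 799 of the 22753 genes tested were. With the replicate block 1 member was higher (Zfp975) and 6 lower (Zfp11, Zfp362, Zfp386, Zfp672, Zfp783 and Zfp982), where 1.73% and 2.56% of all genes were. The median of the members was -0.17, between the -0.089 of all genes and the -0.22 of the genes of the same flags, and it was 0.03 without both arrays that stand apart.

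Between the genotypes at 0 h, also, no member passed in limma, where 0.536% of all genes were higher and 0.0923% lower in Bach2-/- cells. At an unadjusted p under 0.05, 2 of the 283 members were higher and 9 lower, where 889 and 501 of the 22753 genes tested were. With the replicate block 6 members were called, given here with the SE of the fit without the block. Zfp11 was higher (0.73 ± 0.33) and 5 were lower: Zfp318 (-1.08 ± 0.38), Zfp612 (-1.13 ± 0.31), Zfp831 (-0.98 ± 0.39), Zfp882 (-0.88 ± 0.29) and Zfp975 (-0.76 ± 0.25). Of all genes 2.8% were higher and 0.927% lower with the block. The median of the members was -0.15, against 0.032 over all genes and 0.054 over the genes of the same flags, with 203 of 283 negative, and -0.21 without both arrays that stand apart.

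The 2 responses share no array. Across the 283 members the WT and Bach2-/- differences correlated at r 0.804, against 0.759 over all genes and 0.797 over the genes of the same flags, a description across genes measured on the same slides and scaled alike. In all, 17 members passed in both genotypes in the same direction, 5 higher and 12 lower, and 0 in opposite directions. They are 48.6% of the 35 WT calls and 63.0% of the 27 Bach2-/- calls. Over all genes the same shares were 46.2% and 71.4%, and over the genes of the same flags 45.1% and 70.8%, so the overlap is near that background and is only a description. The 5 that were higher in both were Zfp52, Zfp105, Zfp367, Zfp523 and Zfp948. The 12 that were lower in both were Zfp90, Zfp229, Zfp273, Zfp287, Zfp456, Zfp467, Zfp563, Zfp608, Zfp652, Zfp831, Zfp945 and Zfp975. Of the 4 members that differed by genotype at 24 h, 3 are also among the 27 that changed in Bach2-/- cells, and these contrasts share the Bach2-/- arrays at 24 h.

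**Figure D5:**
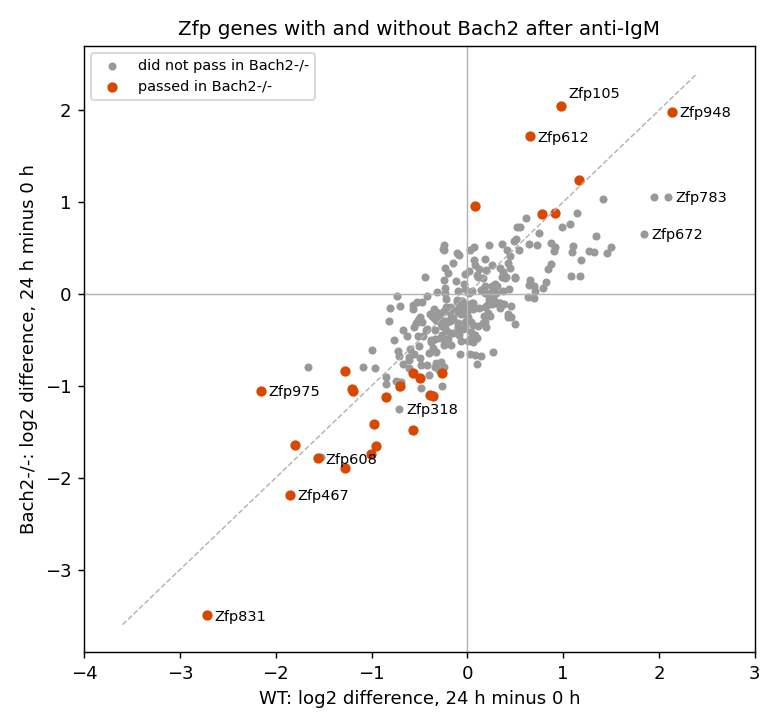
The log2 difference of 24 h minus 0 h in WT cells (x axis) and Bach2-/- cells (y axis) for the 283 Zfp genes, 1 point per gene, with those that passed the test in Bach2-/- cells in the darker colour and the dashed line marking equal differences. Zfp831 lies lowest in both genotypes, while Zfp783 and Zfp672 lie below the dashed line.

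By role, the 10 members that act on RNA and protein synthesis gave no call in the tested comparisons without the replicate block. None passed in Bach2-/- cells over 24 h (median -0.12) or between genotypes at 24 h (median -0.39, all 10 negative). Zfp36, or tristetraprolin, which binds AU-rich elements and speeds mRNA decay, read -1.54, 1.44 and 2.28 in Bach2-/- cells at 0 h and -2.93, -0.32 and 0.096 at 24 h. Its difference of -1.78 ± 1.20 is large, but array 1 lay over 2 log2 units below the others in every group, and the adjusted p was 0.454. On each slide the 24 h arrays lay below those at 0 h. With the replicate block Zfp36 and Zfp622 were lower over 24 h in Bach2-/- cells (20%, beside 16.8% of all genes). None of the 10 passed between genotypes with it.

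Zfp622, a factor in the maturation of the large ribosomal subunit, read 7.35, 6.62 and 6.64 at 0 h and 6.78, 5.88 and 6.43 at 24 h in Bach2-/- cells (-0.51 ± 0.34, adjusted p 0.451). Zfp598, the ubiquitin ligase that marks collided ribosomes, read 0.22, 1.21 and 1.24 in WT and -0.44, 0.36 and 1.13 in Bach2-/- cells at 24 h (-0.54 ± 0.51, adjusted p 0.741). Zfp207, a mitotic spindle and splicing factor, differed by -0.56 ± 0.42 at 24 h. The others were Zfp106, Zfp326, Zfp346, Zfp473, Zfp638 and Zfp830, with differences between -0.92 and -0.03 at 24 h.

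Among the 9 members with lymphocyte or signaling roles, Zfp608 passed in Bach2-/- cells over 24 h and Zfp318 between genotypes at 24 h. Zfp292, which also passed the threshold in WT cells with -1.0 ± 0.27, differed by -0.61 ± 0.27 in Bach2-/- cells (adjusted p 0.182). Zfp148, a GC-box binding factor, read 3.63, 3.47 and 3.61 in WT and 3.1, 3.01 and 3.13 in Bach2-/- cells at 24 h, without overlap (-0.49 ± 0.19, adjusted p 0.304, and called with the block). Zfp35, Zfp91, Zfp281, Zfp335 and Zfp609 differed at 24 h by -0.69 to 0.24 and none passed. Of the 9, with the block, 4 were lower in Bach2-/- cells over 24 h (Zfp148, Zfp292, Zfp318 and Zfp608) and 4 between genotypes at 24 h (Zfp35, Zfp148, Zfp318 and Zfp608). Each is 44.4% of a small list, beside 16.8% and 10.7% of all genes with the block.

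The 11 chromatin and general transcription members gave no call in either tested comparison, while with the replicate block Zfp217, Zfp263 and Zfp644 were lower over 24 h in Bach2-/- cells and Zfp217, which lacks array 2 of the Bach2-/- cells at 24 h, between genotypes. These are 27.3% and 9.09%, beside 16.8% and 10.7% of all genes with the block. All 11 were negative between genotypes at 24 h with a median of -0.37, and the differences over 24 h in Bach2-/- cells ran from -0.69 to 0.05. Zfp143, which binds many promoters, read 0.98, 0.57 and 0.73 in Bach2-/- cells at 0 h and 0.96, -0.11 and 0.57 at 24 h (-0.29 ± 0.28). Zfp263 had the lowest adjusted p of the group, 0.0555, with 3.71, 3.51 and 3.52 at 0 h and 3.11, 2.68 and 2.88 at 24 h (-0.69 ± 0.21). Zfp592 and Zfp687, partners in a transcriptional complex, differed by -0.22 ± 0.20 and -0.26 ± 0.39. Zfp462 and Zfp532 of this list are not members.

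Of the 6 KRAB proteins with a known target none passed in either tested comparison. Zfp809, which silences murine leukaemia proviruses through their primer binding site, read 1.06, 0.23 and 0.19 in Bach2-/- cells at 0 h and 0.31, -0.95 and -0.31 at 24 h (-0.80 ± 0.36, adjusted p 0.201). Zfp57 and Zfp445, which keep methylation at imprinted loci, differed by -0.15 ± 0.65 and 0.48 ± 0.22 over the same time. Zfp568, a repressor of a placental Igf2 transcript, differed by 0.54 ± 0.27. Zfp932 and Zfp708, which bind repeat elements, differed between genotypes at 24 h by -0.63 ± 0.37 and -0.94 ± 0.41, adjusted p 0.554 and 0.377. With the replicate block Zfp445 and Zfp568 were higher and Zfp809 and Zfp932 lower over 24 h in Bach2-/- cells, and Zfp708, Zfp809 and Zfp932 were lower between genotypes at 24 h. Over 24 h these are 33.3% of the 6 in each direction, beside 16.7% and 16.8% of all genes with the block. Between genotypes they are 50%, beside 10.7%.

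The partners of the KRAB proteins were taken from a list of 28 co-repressor and heterochromatin genes. In Bach2-/- cells over 24 h 2 rose and 1 fell (7.14% and 3.57%, beside 5.51% and 7.74% of all genes tested). With the replicate block 6 rose and 5 fell (21.4% and 17.9%, beside 16.7% and 16.8% of all genes). Cbx5, the HP1 alpha protein, read 0.94, 0.80 and 0.71 and then 1.85, 1.43 and 1.76 (0.86 ± 0.21, adjusted p 0.0166), Hdac2, a histone deacetylase, rose (0.76 ± 0.20) and Morc3 fell (-0.88 ± 0.25). Between genotypes at 24 h none of the 28 passed and the median was -0.35, while with the replicate block 7 were lower (25%, beside 10.7% of all genes): Trim28, Setdb1, Cbx1, Cbx3, Hdac1, Mbd3 and Gatad2a. In WT cells 8 rose and 2 fell (28.6% and 7.14%, beside 11.5% and 9.06% of all genes), with a median of 0.60. With the block 17 rose and 4 fell (60.7% and 14.3%, beside 27.6% and 19.3% of all genes). Without the block Uhrf1 (2.43 ± 0.39), Cbx5 (1.5 ± 0.21), Suv39h2 (1.44 ± 0.32), Rbbp7 (1.39 ± 0.33), Trim28, Mbd3, Setdb1 and Hdac2 rose, and Tasor and Morc3 fell. Trim28, the scaffold that KRAB domains recruit, read 4.27, 4.03 and 3.77 in WT cells at 0 h and 5.70, 4.90 and 4.95 at 24 h (1.16 ± 0.37). In Bach2-/- cells it read 4.59, 4.02 and 3.83 and 5.09, 3.76 and 4.60, with the dimmest array lowest (0.33 ± 0.37, adjusted p 0.723). The difference between the 2 responses of Trim28 was -0.83 ± 0.52, adjusted p 0.841.

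Zinc finger families under other names were counted beside the members. Of 37 BTB zinc finger genes 2 rose and 5 fell in Bach2-/- cells over 24 h, 5.41% and 13.5% beside 5.51% and 7.74% of all genes. With the block 5 rose and 11 fell, 13.5% and 29.7% beside 16.7% and 16.8% of all genes. Zbtb32, a repressor known in plasma cells and memory B cells, was higher by 1.75 ± 0.32 and Zbtb46 by 1.75 ± 0.36, while Zbtb4 (-1.21 ± 0.21) and Zbtb7a (-1.01 ± 0.24) fell most. Between genotypes at 24 h Zbtb38 was higher (1.29 ± 0.30) and Zbtb10 (-1.19 ± 0.22) and Zbtb12 (-1.13 ± 0.26) lower, and the median of the family was -0.31. These are 2.7% and 5.41% of the family beside 2.16% and 0.835% of all genes. With the block 3 were higher and 7 lower, 8.11% and 18.9% beside 7.98% and 10.7% of all genes. Of 17 SCAN zinc finger genes 1 rose in Bach2-/- cells, Zscan12 (1.16 ± 0.34), and none passed at 24 h, with or without the block. With the block 4 of the SCAN genes rose and 3 fell in Bach2-/- cells, 23.5% and 17.6% beside 16.7% and 16.8% of all genes. Zfp36l1, a paralog of Zfp36 that also destabilises mRNA, rose from 5.88, 5.69 and 5.87 to 6.89, 6.56 and 6.64 (0.88 ± 0.21, adjusted p 0.0149), while Zfp36l2 differed by -1.12 ± 0.43 (adjusted p 0.132, and 0.0199 with the block).

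Zfp genes often lie side by side in clusters that arose by duplication. By the order of protein-coding genes in the RefSeq table, 131 members formed 42 runs of direct neighbours and 152 did not. Any protein-coding gene that is not a member ends a run, so a member outside runs can still lie in a cluster. In Bach2-/- cells over 24 h 3 members rose and 8 fell within runs (2.29% and 6.11%), and 4 rose and 12 fell outside them (2.63% and 7.89%), where 5.51% and 7.74% of all genes did, with medians of -0.17 in both sets. At 24 h between genotypes the medians were -0.33 in runs and -0.30 outside. The 4 members that passed there lay outside runs, but with the replicate block 37 in runs (28.2%) and 28 outside (18.4%) were lower and 2 and 3 higher. Of all genes 10.7% were lower and 7.98% higher with the block. No test of a difference between both sets was made. The longest runs held 8 members: the run of Zfp455, Zfp458, Zfp457, Zfp595, Zfp953, Zfp456, Zfp429 and Zfp459 had a median of -0.95 in Bach2-/- cells and -0.50 in WT cells over 24 h, and Zfp455 and Zfp456 of it passed in Bach2-/- cells. The other run of 8, from Zfp74 to Zfp146, had a median of -0.02 in Bach2-/- cells, and none of it passed. The run of 7 from Zfp677 to Zfp983 holds Zfp52 and Zfp948, which both rose. The sequences of members of a run were not compared, and how far their probes bind each other's transcripts was not tested.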

How the data were processed

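Agilent Feature Extraction 10.7.3.1 turned the authors' scans into spot values, per the file headers and the submitters' processing notes. Its processed signal is an intensity, background-subtracted and detrended, per the file headers. Median spot and background intensities, as deposited, served 1 alternative, and the flags for controls, outliers and signal well above background were used as deposited. A whole-series table, deposited as log2 values, served as another. Its scale and centring are not given in the sources used here and stay unknown, as does the order of steps. It correlated with the log2 signal over the 75th percentile, centred per probe (r 0.9987 to 0.9999), in the direction of the signal. By column the medians of that table read -0.04, 0.16 and 0.014 (WT 0 h), -0.27, 0.11 and 0.011 (WT 24 h), -0.26, -0.097 and -0.031 (Bach2-/- 0 h), -0.27, 0.50 and 0.071 (Bach2-/- 24 h).

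Outlier spots were dropped, spots of 1 probe averaged, and the signal divided by the 75th percentile of its array, floored at 0.01 and taken to log2. A probe stayed if a group had it well above background on its 3 arrays (30755 probes), with the brightest probe per gene (22753 genes, 13142 with a RefSeq symbol from assembly GRCm38.p6; the array annotation is on mm9 per the file headers). In 3 members, Zfp217, Zfp422 and Zfp609, 1 array each is missing as an outlier spot and was dropped from the fit. A limma model (3.58.1, under R 4.3.3, with Python 3.11.15 for tables) had 1 mean per group over all 12 arrays, with Benjamini-Hochberg adjustment over all genes, checked on simulated data. Folds are powers of 2 of differences of log2 means, so the fold is the authors' signal ratio between groups after this scaling. With 3 arrays against 3 no exact permutation p can be smaller than 0.1, and precision is limited by the few arrays.

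The labels number the replicates. Across genes, arrays of the same number deviated from their group means together (r 0.467 to 0.889 over 18 pairs). Other pairs on the same slide had 0.247 to 0.642, and pairs across slides -0.814 to -0.417. The same-slide ranges overlap, and arrays numbered 1 share a slide as well as a number. Whether the numbers pair the arrays beyond the slide is thus not settled, and the labels do not say it. Counts of calls with the block are given in the report where it changes them. The alternatives were quantile or median scaling, normexp background correction (offset 50), the deposited table, other filters, the mean of a gene's probes, replicate or slide as a block, the second slide alone, only the groups compared, both arrays that stand apart left out, each array left out, and other choices of members.

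The members, the lists, the tests and the rule for naming genes were chosen with earlier results of these data known. Named were, per contrast, the 8 largest rises and falls among members past the test, members with textbook roles whatever they did, up to 4 genes of each other list past the test, the members at the edge of the choice, and Bach2; others were named after their values were seen. Protein sequences were not analysed here.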

Additional observations from a re-analysis of the deposited data

How the results depend on the processing

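Counts of called members are given as higher and lower, with medians of the log2 differences of the members. Shares called over all genes are not set beside them here, so these counts describe the members alone. In Bach2-/- cells over 24 h (7 and 20, 25.9% of calls higher) they were 13 and 31 with quantile scaling, 5 and 8 (38.5%) with normexp, 12 and 34 on arrays 2 and 3 alone, 3 and 8 with only the groups compared, 31 and 66 with a slide block and 34 and 72 with the replicate block. They were 9 and 11, with a median of -0.020, without both arrays that stand apart. Leaving out 1 array gave 3 to 7 and 11 to 20, with medians from -0.31 to -0.14. Between genotypes at 24 h (1 and 3, 25% higher) they were 0 and 3 with quantile scaling (0.0%), 1 and 1 with median scaling (50%), 0 and 1 with normexp (median -0.17), 0 and 0 with no filter on dim probes, 1 and 1 with probes above background on all 12 arrays, 2 and 6 on arrays 2 and 3 alone, 0 and 0 with only the groups compared, 3 and 49 with a slide block, 5 and 65 with the replicate block and 1 and 0 without both arrays that stand apart. Leaving out 1 array gave 0 to 1 and 0 to 3, with medians from -0.45 to -0.20. In WT cells over 24 h (20 and 15, 57.1% higher) they were 22 and 29 with quantile scaling (43.1%), 28 and 26 on arrays 2 and 3 alone, 46 and 56 with a slide block and 48 and 61 with the replicate block, and 6 to 18 and 12 to 15 with 1 array left out, with medians from -0.13 to -0.024. Between genotypes at 0 h (0 and 0) they were 0 and 1 with quantile scaling, 0 and 1 with each gene's probes averaged, 0 and 4 with a slide block and 1 and 5 with the replicate block, with medians from -0.21 to -0.084 with 1 array left out. For the response difference (0 and 0) they were 1 and 3 with a slide block and 1 and 6 with the replicate block, and the median was 0.034 without both arrays that stand apart and -0.29 to -0.049 with 1 array left out. The WT difference of Zfp975 turned to 0.049 with the mean of its probes, because its other probes did not fall. For the rest of these changes the cause was not tested. No scaling moved the median of all genes by over 0.1, and the median of the members stayed negative under every scaling in all 5 contrasts. Of the other values of named genes, 3739 kept their direction and side of the threshold, 101 no longer passed, 78 newly passed and 65 moved. Members near background, such as Zfp229 at 24 h in Bach2-/- cells, are limited by their signal, and the 3 arrays per group limit every call.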
